A study of Mus musculus with 28 samples.

Results

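The nuclear-encoded subunits of the mitochondrial respiratory chain were followed across dendritic cells sorted from healthy and transplanted mouse kidneys. Members were fixed by a rule on gene symbols, which was chosen with earlier results of these data known. It took every gene on the array whose probeset (a group of probes read as 1 value) carried a single symbol starting with Nduf and then a, b, c, s or v, with Cox and then a digit from 4 to 8, with Uqcr or with Atp5, together with Sdha, Sdhb, Sdhc and Sdhd. Where a gene had several probesets, the brightest by its mean over the 28 arrays was kept. The rule found 85 genes of the 19272 on the array, measured by 107 probesets. Of these, 84 were among the 14346 genes bright enough to be tested. The remaining member, Cox7b2, a testis-type subunit, stayed between 5.31 and 5.92 on every array.

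Cells were sorted for CD45 (a protein of all white blood cells), CD11c (the product of Itgax) and MHC class II from kidney cortex and medulla. Healthy kidneys, labelled homeostatic, were those of C57BL/6 mice or of BALB/c mice, and each strain gave 4 arrays of cortex and 4 of medulla. Kidney allografts were taken 3 days after transplantation. In these, donor cells (strain label BALB/c, CD45.2) and host cells (strain label C57BL/6, CD45.1) were sorted apart out of the same kidneys, giving 3 arrays for each origin and region. The labels give no age and name no drug. They number 11 mice, so cortex and medulla, and in grafts donor and host, share animals. A graft group therefore rests on 3 grafts at a single day. Healthy kidneys were not transplanted, so surgery, ischaemia and alloimmunity cannot be told apart in a graft comparison. RNA from the sorted cells was amplified before labelling. Levels are on the log2 scale of array signal, and a group's level is its mean ± SD (n = 4 for homeostatic, n = 3 for graft groups). Differences, also log2, come with the SE that limma gave. A difference was called when its adjusted p, over all genes tested, was under 0.05.

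The respiratory chain sits in the inner mitochondrial membrane. Complex I takes electrons from NADH and complex II takes them from succinate. Coenzyme Q carries them to complex III, and cytochrome c carries them on to complex IV, which reduces oxygen. Complexes I, III and IV pump protons across the membrane, and complex V, ATP synthase, uses the returning protons to make ATP. Dendritic cells at rest draw on this chain, while activated dendritic cells are known to turn towards glycolysis. The tubular epithelium of the kidney is among the most mitochondria-rich tissues of the body.

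The sorted populations differed in their marker genes as well as in the members. Ptprc, which encodes CD45, lay at 12.79 ± 0.13 in C57BL/6 cortex and 12.79 ± 0.04 in C57BL/6 medulla, against 9.67 ± 1.09 in host medulla, where the 3 arrays read 10.93, 9.11 and 8.97. Donor cortex was at 12.03 ± 0.25, donor medulla at 11.23 ± 0.23 and host cortex at 11.71 ± 1.20. Itgax stood at 11.09 ± 0.21 in C57BL/6 medulla, 7.66 ± 0.45 in host medulla, 8.43 ± 0.97 in BALB/c medulla and 7.38 ± 0.19 in donor medulla, so that its defining marker was low in 3 of the medulla groups. BALB/c medulla replicate 1 stood apart from the other arrays, correlating on average by 0.788 with the rest of its group, where the other 27 arrays reached 0.848 to 0.950. The number of arrays limits the precision.

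Averaged over the 84 tested members, the level per array was 10.80, 10.42, 10.41 and 10.55 in C57BL/6 cortex and 10.42, 10.52, 10.34 and 10.29 in C57BL/6 medulla. BALB/c cortex read 10.85, 10.12, 10.26 and 10.23, and BALB/c medulla read 9.67, 10.77, 10.97 and 10.12. The 12 graft arrays read 10.88, 11.11 and 11.37 in host cortex, 11.34, 11.64 and 11.52 in host medulla, 11.09, 11.14 and 11.22 in donor cortex, and 10.92, 11.41 and 11.16 in donor medulla. Every graft array therefore lay above every homeostatic array of its strain label and region, except that donor medulla replicate 1 (10.92) lay below BALB/c medulla replicate 3 (10.97). The spread was widest in BALB/c medulla (SD 0.60), where replicate 1 was the lowest of all 28 arrays.

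**Figure D1:**
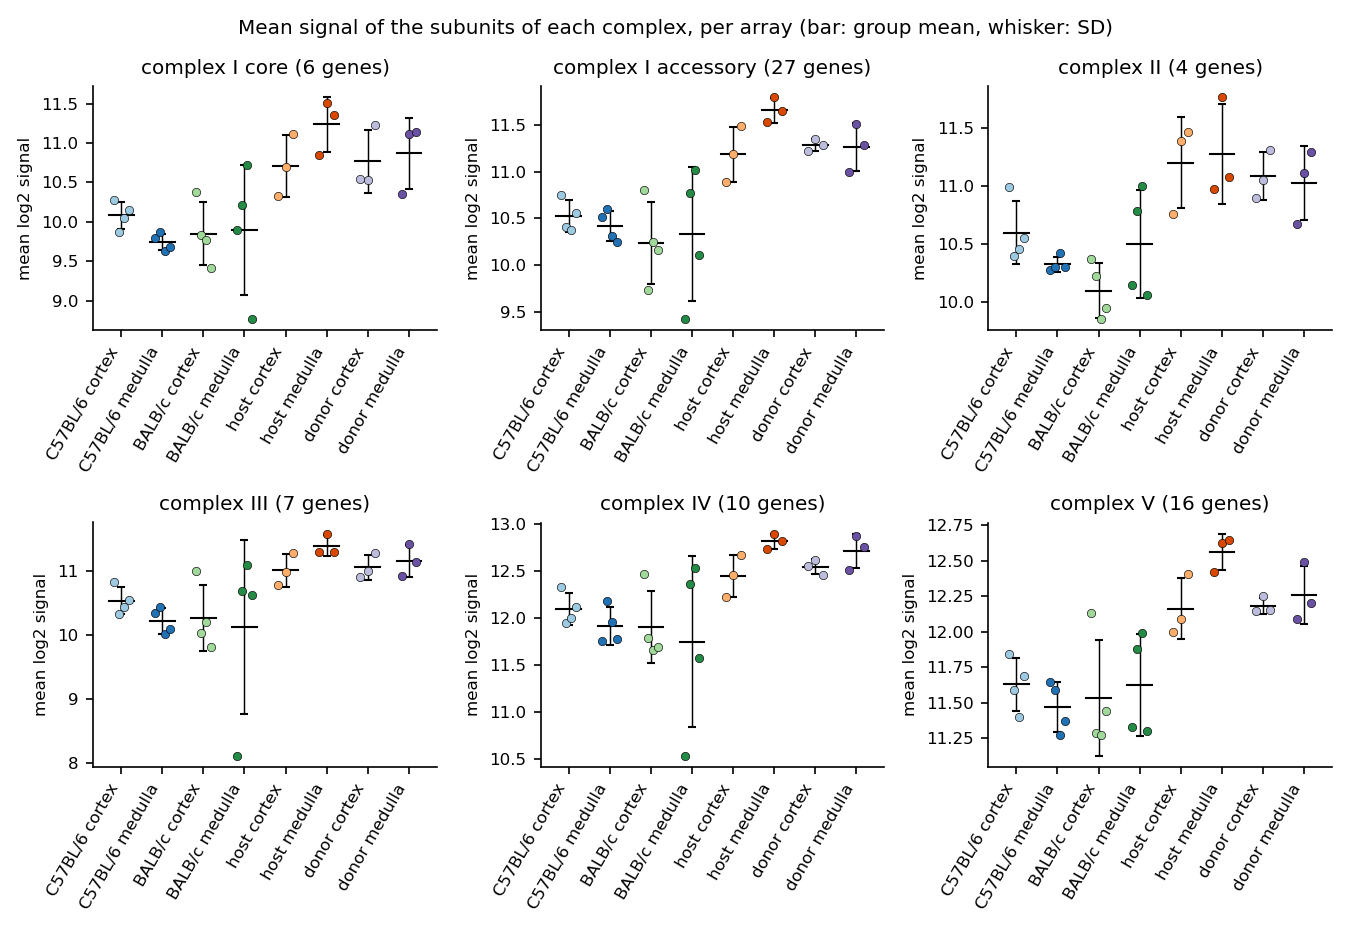
Mean log2 signal of the members of 6 classes on each array, with points for arrays, a bar for the group mean and whiskers for the SD (n = 4 in homeostatic and n = 3 in graft groups). The classes are complex I core (6 genes), complex I accessory (27), complex II (4), complex III (7), complex IV (10) and complex V (16); in every class the host medulla mean lies above the C57BL/6 medulla mean.

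Of the 85 members, 71 had a promoter in the RefSeq table for build GRCm38.p6 (300 bases a window, 250 before to 50 after the start), and 10 short patterns known from promoters of mitochondrial and housekeeping genes were searched on both strands. The pattern of nuclear respiratory factor 1 (NRF1, a known regulator of respiratory genes), spelled GCGC, any base, then TGCGC, was found in 17 of the 71 members (23.9%) and in 5.19% of the 27025 genes of the table. Its palindromic form, with A as the free base, was in 7 members (9.86%) and in 1.07% of all genes, and that form preceded by T was in 3 members (4.23%) and 0.688% of all. The GABP pattern CCGGAAG was in 18 members (25.4%) against 9.93%, its core CGGAAG in 33 (46.5%) against 18.8%, and the YY1 pattern AAGATGGCG in 6 (8.45%) against 1.64%. Other patterns were nearer the background: AAGGTCA was in 7 members (9.86%) against 5.38%, CCATNTT in 19 (26.8%) against 18.2%, GGGCGG in 33 (46.5%) against 38.2%, and TGAAGGTCA in 0 against 0.418%. The background took in every gene of the table, tested on the arrays or not, so it was not matched to the members for expression. Shares among the tested genes alone were not computed. The NRF1 pattern was chosen for display after these shares had been seen, and a match of letters shows neither binding nor a cause. No match of the NRF1, GABP and YY1 patterns overlapped another of these 3.

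The 6 stretches printed here hold the NRF1 pattern before the start and lie wholly, flanks included, outside the annotated gene. They are all such stretches in members called higher in host medulla or in donor cortex against their homeostatic group. Ndufa5, called higher in both, holds the pattern before the start too, but is not printed because a flank reaches into the gene. Each printed stretch holds 50 bases of GRCm38.p6 from RefSeq, 5′ to 3′ on the gene's strand, with the pattern or its reverse complement in capitals.
Ndufa8, chr2:36049339-36049388, minus strand, pattern at -30 to -21: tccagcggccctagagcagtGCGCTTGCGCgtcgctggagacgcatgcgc
Ndufa11, chr17:56717682-56717731, plus strand, pattern at -60 to -51: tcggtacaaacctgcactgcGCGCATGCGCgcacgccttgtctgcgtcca
Ndufaf4, chr4:24897950-24897999, plus strand, pattern at -113 to -104: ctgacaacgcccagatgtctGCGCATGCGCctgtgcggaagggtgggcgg
Sdha, chr13:74350309-74350358, minus strand, pattern at -98 to -89, the first of 3 places: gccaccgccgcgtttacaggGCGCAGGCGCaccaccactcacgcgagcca
Atp5g2, chr15:102671060-102671109, minus strand, pattern at -42 to -33: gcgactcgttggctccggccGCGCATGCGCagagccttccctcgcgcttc
Atp5k, chr5:108434420-108434469, minus strand, pattern at -50 to -41: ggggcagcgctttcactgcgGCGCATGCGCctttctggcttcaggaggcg
Among the 71 members with a promoter, 9 of the 32 called higher in host medulla held the NRF1 pattern, and so did 8 of the 39 that were not called.

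Host cells of graft medulla, compared with C57BL/6 medulla, showed the broadest difference. Of the 84 tested members 35 rose and 0 fell, where 6.27% of all tested genes rose and 5.21% fell. The median difference of the members was 1.04, against 0.07 for all tested genes, and 82 of the 84 differences were above 0. For 68 members the 3 host arrays all lay above the 4 C57BL/6 arrays, as they did for 14.3% of all tested genes. All 35 calls came from members whose groups did not overlap, with differences from 0.57 to 2.99.

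Complex V had the most calls for its size in this comparison, with 11 of 16 members higher and a median difference of 0.88. Atp5g1 encodes the c subunit, which forms the rotating ring of ATP synthase. It read 9.49, 9.48, 8.45 and 8.51 in C57BL/6 medulla and 11.41, 11.47 and 11.51 in host medulla. All 3 host arrays lay well above all 4 homeostatic arrays, a difference of 2.48 ± 0.41 (5.59-fold, adjusted p = 0.00022). The c subunit has 3 genes that make the same mature protein, and the other two gave smaller values. Atp5g2, whose promoter stretch is printed with the NRF1 pattern, rose by 0.91 ± 0.28 (adjusted p = 0.036), and Atp5g3 had a difference of 0.98 ± 0.46 (adjusted p = 0.22).

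Atp5k, the e subunit of the membrane part and another gene with the printed pattern, read 11.75, 11.73, 10.47 and 11.17 in C57BL/6 medulla and 13.10, 13.02 and 13.15 in host medulla (1.81 ± 0.39, adjusted p = 0.0029). Atp5b, the catalytic beta subunit, read 12.64, 12.76, 12.44 and 12.26 against 13.29, 13.42 and 13.43 (0.86 ± 0.18, adjusted p = 0.0025). Neither gene's groups overlapped, and the 3 host arrays lay close together for both. The 3 smallest calls in the complex were Atp5md (0.61 ± 0.14, adjusted p = 0.0039), Atp5j (0.79 ± 0.24, adjusted p = 0.031) and Atp5l (0.82 ± 0.20, adjusted p = 0.0064). The members of complex V without a call were Atp5j2, Atp5mpl, Atp5h, Atp5g3 and Atp5o, with differences from 0.67 to 1.57 and adjusted p from 0.058 to 0.43.

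In complex I, 3 of 6 core subunits and 11 of 27 accessory subunits rose, with medians of 1.46 and 1.24. Core subunits carry the redox centres, and accessory subunits surround them. Ndufv1, the subunit that binds NADH and the flavin, read 8.03, 9.50, 8.58 and 8.25 in C57BL/6 medulla and 10.54, 11.43 and 10.87 in host medulla (2.36 ± 0.51, 5.12-fold, adjusted p = 0.0025). Its iron-sulphur neighbour Ndufv2 rose by 1.32 ± 0.31 (adjusted p = 0.005), and Ndufs8, another iron-sulphur subunit, by 1.66 ± 0.49 (adjusted p = 0.028). Ndufs1, the largest core subunit, had a difference of 1.00 ± 0.49 (adjusted p = 0.24), and its groups overlapped.

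Among accessory subunits, Ndufab1, the mitochondrial acyl carrier protein, had the largest call, at 2.02 ± 0.60 (adjusted p = 0.029). Ndufa8, on the intermembrane side and with the printed NRF1 pattern, read 9.67, 9.97, 9.45 and 9.23 against 10.68, 10.99 and 11.22 (1.38 ± 0.32, adjusted p = 0.0044). Ndufb9 read 11.87, 12.22, 11.49 and 11.64 against 13.02, 13.07 and 12.92 (1.20 ± 0.25, adjusted p = 0.0018). In both genes the lowest host array lay above the highest C57BL/6 array. Ndufs5 had the largest accessory difference without a call, 2.45 ± 0.92 (adjusted p = 0.094).

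The Nduf symbols also take in 7 assembly factors, which help build complex I and are not part of it. Of these, 2 rose: Ndufaf5, which modifies the core subunit Ndufs7 (2.06 ± 0.57, adjusted p = 0.019), and Ndufaf4 (1.75 ± 0.54, adjusted p = 0.034). Ndufaf6 read 6.54, 7.66 and 6.84 in host medulla and 6.13 to 7.54 in C57BL/6 medulla, a difference of 0.31 ± 0.55 (adjusted p = 0.85). The 5 assembly factors without a call had differences from 0.31 to 1.79.

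Complex II, which is also an enzyme of the citric acid cycle, had 1 call among 4 members. Sdhc, a membrane anchor, read 11.26, 10.07, 10.77 and 10.77 in C57BL/6 medulla and 12.06, 12.44 and 11.89 in host medulla (1.41 ± 0.32, adjusted p = 0.0042). The flavoprotein Sdha (0.51 ± 0.33, adjusted p = 0.42), the iron-sulphur subunit Sdhb (1.23 ± 0.59, adjusted p = 0.22) and the other anchor Sdhd (0.64 ± 0.32, adjusted p = 0.25) did not pass. Of these 4 genes, Sdhb and Sdhc had groups that did not overlap.

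Complex III had 3 calls among 7 members. Uqcr11, a small subunit, read 8.43, 8.88, 8.37 and 8.94 in C57BL/6 medulla and 10.61, 11.29 and 9.89 in host medulla (1.94 ± 0.44, adjusted p = 0.0044). Uqcrfs1, the Rieske iron-sulphur protein that passes electrons towards cytochrome c, rose by 1.28 ± 0.31 (adjusted p = 0.0075). Uqcrc1, a core protein of the matrix side, rose by 1.15 ± 0.36 (adjusted p = 0.036). The other 4 members had differences from 0.68 to 1.22.

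Complex IV had 3 calls among its 10 broadly expressed members. Cox4i1, a regulatory subunit, read 12.45, 12.52, 12.23 and 11.75 in C57BL/6 medulla and 13.02, 13.34 and 13.34 in host medulla (0.99 ± 0.18, adjusted p = 0.0006). Cox7b rose by 0.99 ± 0.29 (adjusted p = 0.025) and Cox6b1 by 0.57 ± 0.15 (adjusted p = 0.016), the smallest of the 35 calls. Cox7a2l, known for joining complexes III and IV into supercomplexes, was the only broadly expressed member of complex IV with a negative difference (-0.01 ± 0.27, adjusted p = 0.99), and its probesets differed in sign.

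Of the 35 calls, 14 held under every alternative analysis, each array left out in turn included: Ndufv1, Ndufv2, Ndufa8, Ndufa10, Ndufb3, Ndufb9, Sdhc, Uqcr11, Cox4i1, Atp5b, Atp5g1, Atp5k, Atp5l and Atp5md. The other 21 lost their call under at least 1 alternative, and no difference changed sign. Without host medulla replicate 2 or without host medulla replicate 3, 21 members were called. Among the genes named for this comparison, Cox6b1 lost its call without C57BL/6 medulla replicate 3 (0.49, adjusted p = 0.062) or host medulla replicate 2 (0.56, adjusted p = 0.056), and Uqcrfs1 without host medulla replicate 3 (1.10, adjusted p = 0.055). Ndufaf5 lost it without C57BL/6 medulla replicate 2 (1.58, adjusted p = 0.078) or host medulla replicate 2 (1.89, adjusted p = 0.087). Ndufs8, Ndufab1, Ndufaf4, Uqcrc1, Cox7b and Atp5g2 each lost it when any 1 of 4 to 6 arrays was left out, and over all alternatives their highest adjusted p was 0.12, 0.10, 0.13, 0.15, 0.10 and 0.11. With mouse as a random block, Ndufc1 (1.31) had an adjusted p of 0.054, and it also lost its call without any 1 of 5 arrays.

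**Figure D2:**
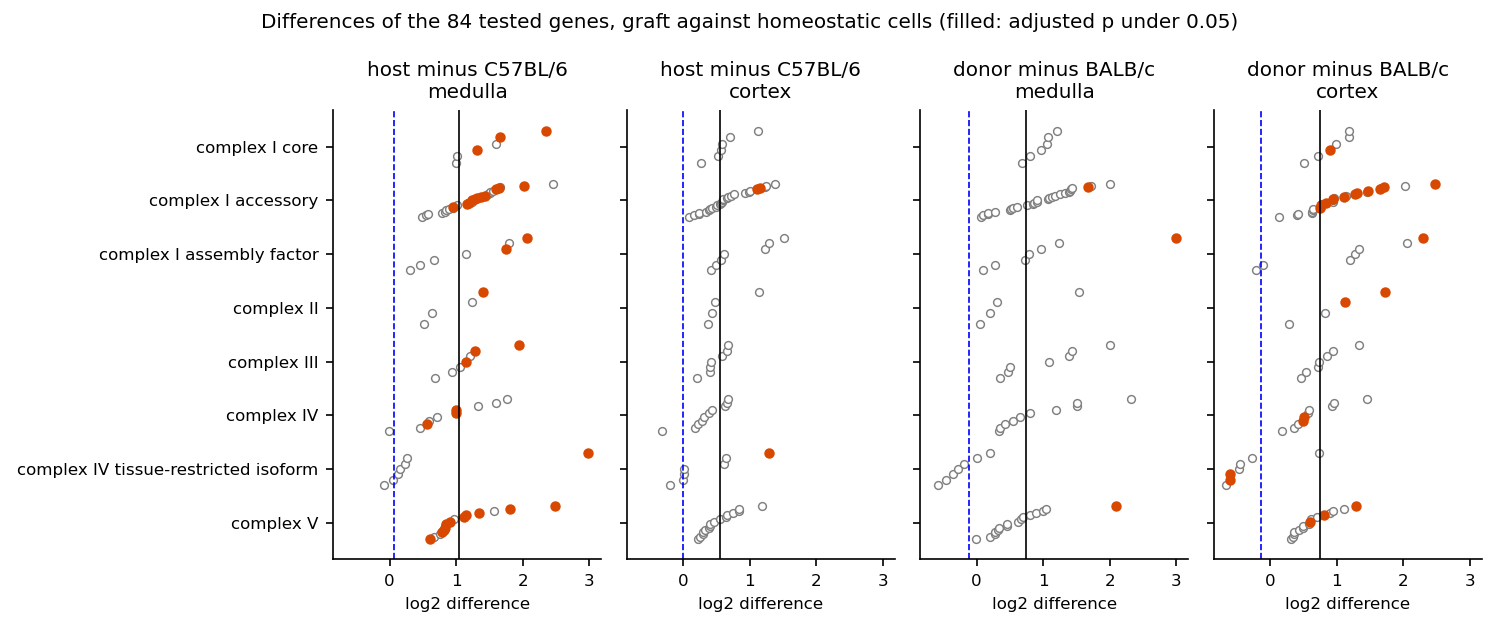
Log2 difference of each of the 84 tested members, by class, for host minus C57BL/6 medulla and cortex and for donor minus BALB/c medulla and cortex. Filled points have an adjusted p under 0.05, the solid line is the median of the members and the dashed blue line the median of all tested genes; the member medians are 1.04, 0.55, 0.74 and 0.76, and those of all genes 0.07, -0.01, -0.11 and -0.13.

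Other genes moved with the members between C57BL/6 medulla and host medulla. Of 18 leukocyte-wide genes, 14 fell and 0 rose (median -2.62), and the mean of the list ran from 11.15 to 11.25 over the C57BL/6 arrays and from 8.14 to 9.13 over the host arrays. Of 9 pan-dendritic-cell genes 8 fell (median -2.33), among them H2-Ab1 (MHC class II, -3.70 ± 0.40), and of 12 resident-macrophage genes 10 fell (median -3.18). Of 14 epithelium-wide genes 13 rose (median 2.50), with list means of 7.83 to 8.32 in C57BL/6 medulla and 10.36 to 10.56 in host medulla. Collecting duct genes had 6 of 12 higher and 0 lower, those of the loop of Henle and distal tubule 3 of 12 higher and 0 lower, and those of the proximal tubule 0 of 16 higher and 2 lower. Log2 signal has no marker at 0: proximal tubule means were 6.96 to 7.47 in host medulla. In bulk samples, fewer cells of a type and less RNA per cell cannot be told apart, and the part of these marker genes in the members' result was not tested.

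Donor cells of graft cortex, compared with BALB/c cortex, came next in number of calls. Here 20 of the 84 members rose and 2 fell, where 7.91% of all tested genes rose and 16.1% fell. The median difference of the members was 0.76, against -0.13 for all tested genes, and 76 members had a difference above 0. For 33 members all donor arrays lay above all BALB/c arrays, against 11.4% of all tested genes, and for 1 member they lay below, against 18.6%. Of the 20 calls higher, 18 had groups that did not overlap.

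Complex I accessory subunits gave 11 of the 20 calls, from 27 members with a median difference of 0.94. Ndufb7, an accessory subunit of the membrane arm, read 10.76, 11.26, 10.17 and 11.16 in BALB/c cortex and 12.08, 11.99 and 12.27 in donor cortex (1.27 ± 0.28, adjusted p = 0.0032). Ndufa5, of the matrix arm, read 10.89, 9.73, 9.88 and 10.61 against 11.80, 11.87 and 12.10 (1.65 ± 0.42, 3.13-fold, adjusted p = 0.008). Ndufa8 read 9.76, 8.99, 8.10 and 9.00 against 10.14, 10.23 and 10.44 (1.31 ± 0.32, adjusted p = 0.0059). In these 3 genes every donor array lay above every BALB/c array, and the donor arrays were the tighter group.

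Ndufb6 had the largest difference of the comparison, 2.48 ± 0.81 (5.59-fold, adjusted p = 0.03), which leaned on a single array. It read 11.92, 6.45, 10.40 and 11.12 in BALB/c cortex and 12.34, 12.64 and 12.39 in donor cortex. Without BALB/c cortex replicate 2, its difference was 1.31 (adjusted p = 0.067), and it also lost its call without donor cortex replicate 1 (2.54, adjusted p = 0.077) or 2 (2.39, adjusted p = 0.099).

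Among assembly factors, Ndufaf6 rose by 2.30 ± 0.55 (adjusted p = 0.0058). It read 6.57, 6.27, 6.42 and 6.81 in BALB/c cortex and 8.24, 8.93 and 9.28 in donor cortex, with no overlap. The BALB/c cortex values lay under the median probeset of their arrays (7.73 to 7.87), near background, so the size of the difference is uncertain. In the other graft groups it read 7.57, 9.91 and 9.38 in host cortex, 7.09, 8.63 and 6.55 in donor medulla and 6.54, 7.66 and 6.84 in host medulla. Its medulla minus cortex difference in host cells was -1.94 (adjusted p = 0.069). Every donor cortex array was high, and so were host cortex replicates 2 and 3, donor medulla replicate 2 and C57BL/6 cortex replicate 1 (9.21).

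In complex II, Sdha and Sdhb rose in donor cortex. Sdha, whose promoter holds the NRF1 pattern at 3 places, read 11.07, 11.51, 10.54 and 9.63 in BALB/c cortex and 11.69, 11.65 and 12.12 in donor cortex (1.13 ± 0.33, adjusted p = 0.016). Without BALB/c cortex replicate 4 the difference was 0.78 (adjusted p = 0.065). Sdhb rose by 1.73 ± 0.59 (adjusted p = 0.038), a call that was lost without any 1 of 6 of the 7 arrays.

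Complex III had 0 calls among 7 members in donor cortex, with differences from 0.47 to 1.34. Complex IV had 2 of 10 (Cox4i1, 0.50 ± 0.18, adjusted p = 0.048, and Ndufa4, 0.50 ± 0.15, adjusted p = 0.021). Complex V had 3 of 16: Atp5g1 (1.29 ± 0.41, adjusted p = 0.029), Atp5j (0.81) and Atp5b (0.60 ± 0.18, adjusted p = 0.022). The 2 calls lower were Ndufa4l2 (-0.61 ± 0.19, adjusted p = 0.025) and Cox8c (-0.60 ± 0.20, adjusted p = 0.034), both tissue-restricted isoforms near the dim end of the array, and both with overlapping groups.

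The count of calls in donor cortex moved with single arrays. It was 40 without BALB/c cortex replicate 1, and 12, 13 and 9 without BALB/c cortex replicates 2, 3 and 4. It was 10 without donor cortex replicate 1 and 7 without donor cortex replicate 2. Fitting only these groups gave 5 calls, and a second quantile normalization gave 6. The calls of Ndufa5, Ndufb7 and Ndufaf6 held under every alternative. Of the others named here, Ndufa8 lost its call only when these groups were fitted alone (adjusted p = 0.074) or normalized again (adjusted p = 0.083), and Cox4i1, Ndufa4, Atp5g1, Atp5b, Atp5j, Ndufa4l2 and Cox8c lost theirs without any 1 of 2 to 7 arrays.

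Marker genes again moved in donor cortex. Of 16 proximal tubule genes 11 rose (median 2.32), with list means of 8.06 to 9.88 in BALB/c cortex and 11.09 to 11.97 in donor cortex. Among them was Cubn, a receptor for filtered protein (4.32 ± 0.36). Of 14 epithelium-wide genes 6 rose, with list means of 7.76 to 8.38 against 8.77 to 9.72. Leukocyte-wide genes had 3 of 18 lower, pan-dendritic-cell genes 6 of 9 lower and resident-macrophage genes 4 of 12 lower. Of all tested genes 7.91% rose and 16.1% fell, so the leukocyte-wide count lay near the share of all genes. Ptprc itself had a difference of -0.57 ± 0.40 (adjusted p = 0.30). The part of these genes in the members' result was not tested.

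Host cells of graft cortex, compared with C57BL/6 cortex, had 3 members higher and 0 lower, where 2.01% of all tested genes rose and 2.13% fell. The median difference was 0.55 against -0.01 for all tested genes, and 81 of the 84 differences were above 0. Arrays did not overlap for 24 members that were higher in host cortex (6.97% of all tested genes) and for 1 that was lower (7.9%). Ndufb7 read 10.86, 10.94, 10.58 and 10.48 in C57BL/6 cortex and 11.77, 11.62 and 12.10 in host cortex (1.11 ± 0.28, adjusted p = 0.021). Ndufa8 read 9.93, 9.22, 9.61 and 9.28 against 10.06, 10.59 and 11.33 (1.15 ± 0.32, adjusted p = 0.039). Both genes had every host array above every C57BL/6 array. Ndufb7 lost its call without C57BL/6 cortex replicate 3 or 4 or host cortex replicate 3, with adjusted p up to 0.13. Ndufa8 lost it without any 1 of 5 arrays, and its highest adjusted p over all alternatives was 0.30. The third call, Cox6a2, is described with the isoforms.

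Only 1 member was called in the comparison without C57BL/6 cortex replicate 2, 3 or 4 or host cortex replicate 2 or 3. Beside the members, 10 of 12 resident-macrophage genes and 5 of 9 pan-dendritic-cell genes fell in host cortex, 4 of 14 epithelium-wide and 4 of 16 proximal tubule genes rose, and 0 of 18 leukocyte-wide genes passed (median -0.85). Proximal tubule means ran from 9.27 to 11.21 in C57BL/6 cortex and from 10.76 to 12.04 in host cortex.

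Donor cells of graft medulla, compared with BALB/c medulla, also had 3 members higher and 0 lower, where 1.73% of all tested genes rose and 1.45% fell. The median difference was 0.74 against -0.11, and 78 members had a difference above 0. For 23 members the donor arrays lay above all BALB/c arrays, against 4.94% of all tested genes, and for 2 they lay below, against 10.4%. The SD over all probesets was 1.46 to 1.67 on BALB/c medulla arrays and 1.66 to 1.75 on donor medulla arrays. The part of this spread in the members' differences was not tested. The assembly factor Ndufaf5 read 7.16, 10.32, 7.51 and 7.51 in BALB/c medulla and 11.04, 11.05 and 11.29 in donor medulla (3.00 ± 0.57, adjusted p = 0.0083). All BALB/c medulla arrays but replicate 2 lay under their median probeset (7.76 to 7.88), so this size is uncertain too. Atp5h, the d subunit of the stalk of ATP synthase, read 8.30, 11.92, 11.97 and 9.59 against 12.34, 12.93 and 12.37 (2.10 ± 0.55, adjusted p = 0.038). Ndufb11, an accessory subunit of the membrane arm, read 10.63, 11.50, 11.61 and 9.52 against 12.40, 12.74 and 12.32 (1.68 ± 0.39, adjusted p = 0.023). For Atp5h and Ndufb11 the low values were those of BALB/c medulla replicates 1 and 4.

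The calls of Atp5h and Ndufb11 were lost without BALB/c medulla replicate 1 or 4 or without donor medulla replicate 1 or 2, and that of Atp5h also without donor medulla replicate 3. Over all alternatives their adjusted p reached 0.42 and 0.33. The call of Ndufaf5 was lost when these groups were fitted alone (adjusted p = 0.27). The count was 1 without BALB/c medulla replicate 1 or 4 or without donor medulla replicate 2, 5 without BALB/c medulla replicate 2 and 13 without BALB/c medulla replicate 3. In this comparison 6 of 14 epithelium-wide genes rose, 2 of 9 pan-dendritic-cell and 2 of 12 resident-macrophage genes fell, and 0 of 18 leukocyte-wide genes (median -0.86) and 0 of 16 proximal tubule genes passed.

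Between the graft comparisons, 12 members rose both in host medulla and in donor cortex, which is 12 of the 35 and 12 of the 20. Of all tested genes, 1.94% (279) rose in both, out of 899 in host medulla and 1135 in donor cortex. The 12 are Ndufv2, Ndufa5, Ndufa8, Ndufa10, Ndufab1, Ndufb3, Ndufb7, Ndufc1, Cox4i1, Atp5b, Atp5g1 and Atp5j. These comparisons share no arrays, but the host and donor cells came from the same 3 grafts. Ndufa8 and Ndufb7 were called in host cortex too, and Ndufaf5 was called in both graft medulla comparisons. Over all 14 comparisons, 48 of the 84 members were called at least once and 36 never, where 38.1% of all tested genes were called at least once.

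**Figure D3:**
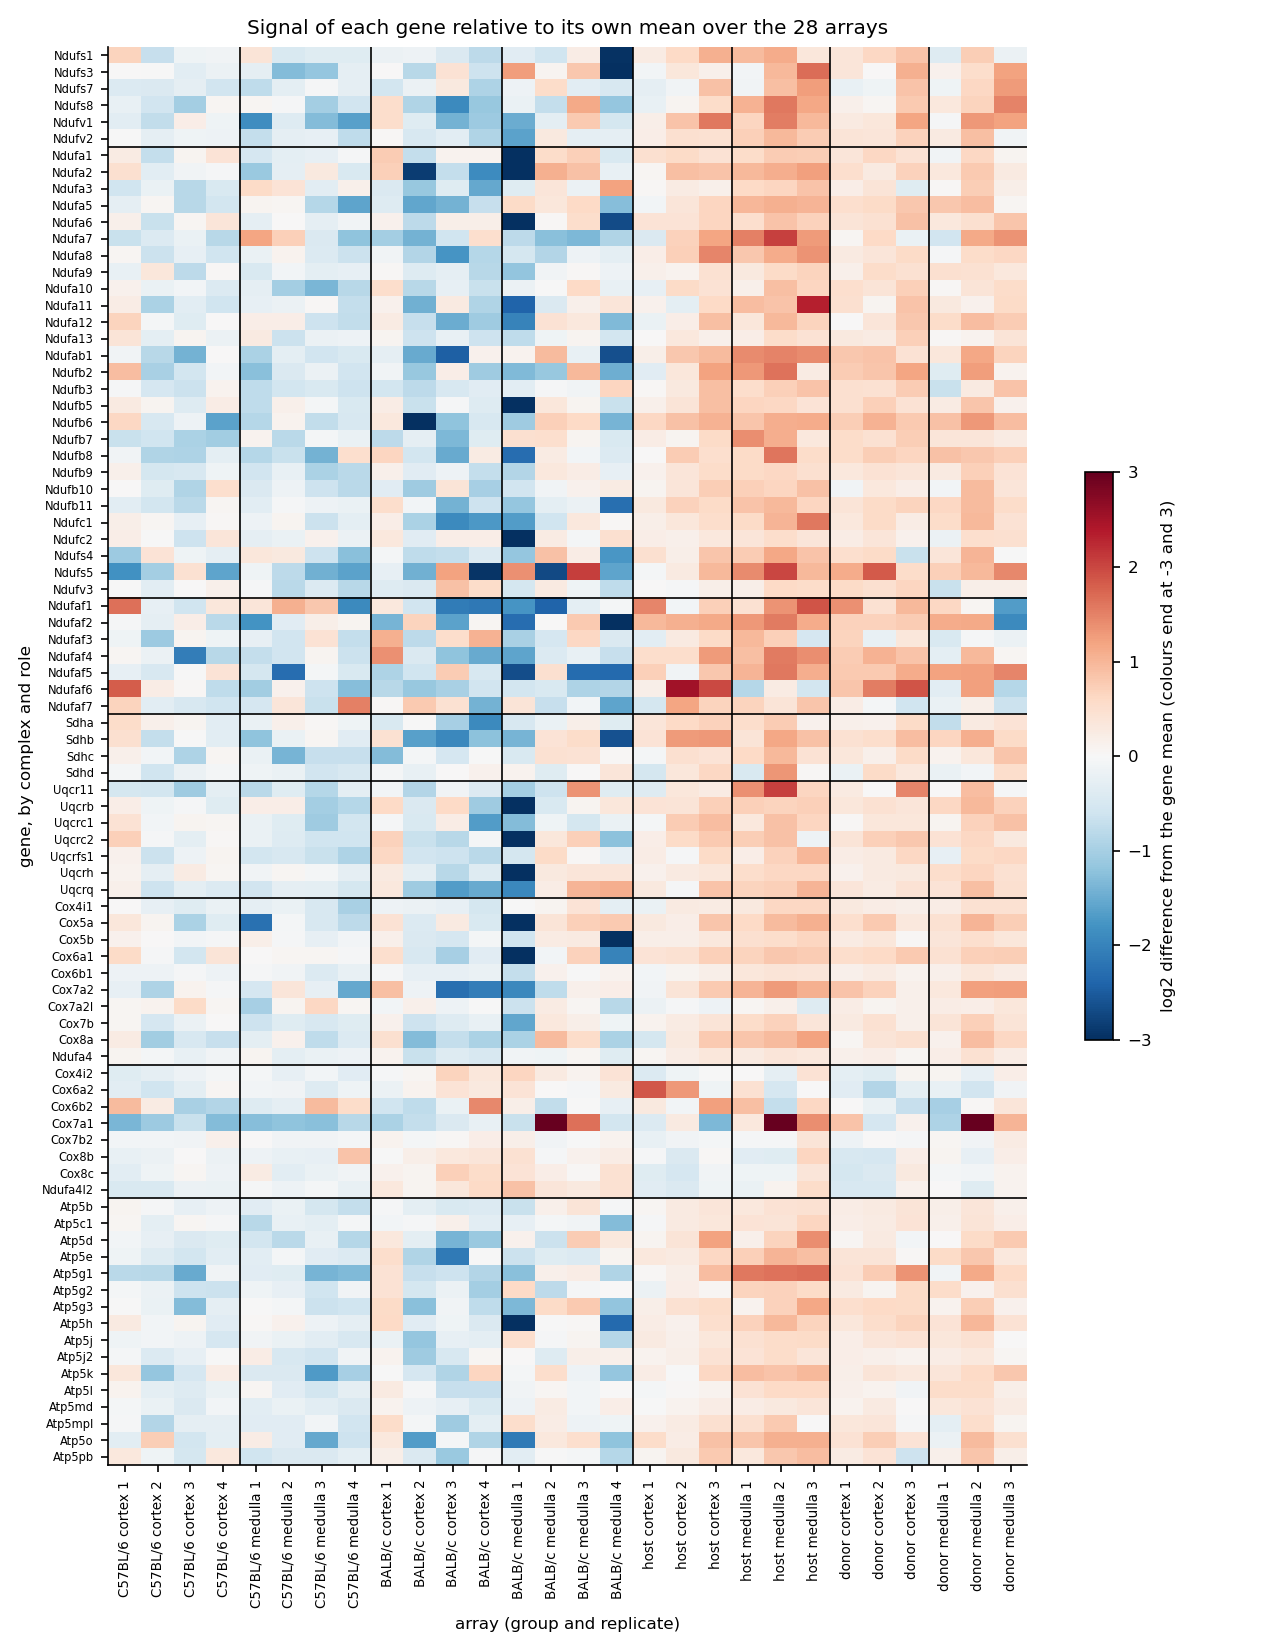
Log2 difference of each member (rows, by class) on each of the 28 arrays (columns, by group) from that gene's own mean over all arrays; colours end at -3 and 3. Graft columns are mostly above the gene means in the broadly expressed classes, and BALB/c medulla replicate 1 holds many of the lowest values, such as Cox5a at 6.47 and Uqcrb at 6.73.

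Within the grafts, donor and host cells of the same region differed in few members. In cortex, 0 members were higher and 1 lower in donor than in host cells, where 0.369% of all tested genes were higher and 0.125% lower. The median difference was 0.06, and the call was Cox6a2. In medulla, 0 passed, where 0.418% of all tested genes were higher and 0.174% lower. At an unadjusted p under 0.05, limma gave 0 members higher and 3 lower in donor medulla, against 2.7% and 3.4% of all tested genes. The 3 were Atp5g1 (-1.08, adjusted p = 0.61), Uqcr11 (-1.06) and Ndufa8 (-0.71), and that count lay near the share of all tested genes. The median there was -0.25, only 8 of the 84 differences were above 0, and donor arrays lay below all host arrays for 12 members (4.28% of all tested genes) and above them for 1 (4.03%). The median probeset was 7.67 to 7.81 on donor medulla arrays and 7.66 to 7.81 on host medulla arrays. The median and signs of the members are not set here against those of all tested genes. A p that misses the threshold does not show that donor and host cells were alike. In the same comparisons 7 of 12 resident-macrophage genes were higher in donor cells in each region. In medulla the epithelium-wide list mean was 9.76 to 10.20 in donor and 10.36 to 10.56 in host cells, although 0 of its 14 genes passed. The leukocyte-wide mean was 9.10 to 10.39 in donor and 8.14 to 9.13 in host cells, with 3 of 18 genes higher in donor cells. Their part in the members' values was not tested.

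Between medulla and cortex, 0 members were called in any of the 4 kinds of cells, and the counts by limma at an unadjusted p under 0.05 were 2 higher and 3 lower in C57BL/6, 7 and 3 in BALB/c, 0 and 2 in donor and 9 and 2 in host cells. At that unadjusted threshold, all tested genes gave 1.23% higher and 2.51% lower in C57BL/6, 3.54% and 3.43% in BALB/c, 7.13% and 6.62% in donor and 7.28% and 6.55% in host cells. At an adjusted p under 0.05, where 0 members passed, they gave 0.00697% and 0.146% in C57BL/6, 0.0209% and 0.0488% in BALB/c, 0.627% and 1.92% in donor and 1.86% and 2.43% in host cells. Host cells stood out in direction: 78 of the 84 differences were above 0, the median was 0.33 against 0.10 for all tested genes, and for 30 members all medulla arrays lay above all cortex arrays (11% of all tested genes) and for 0 below (6.51%). Member medians in the other kinds of cells were -0.12 in C57BL/6, 0.07 in BALB/c and 0.09 in donor cells. Over the same contrast, 15 of 16 proximal tubule genes fell in medulla in host cells (median -4.61) and 15 of 16 in donor cells (median -4.60). In host cells 5 of 14 epithelium-wide genes rose in medulla, with list means of 9.14 to 9.38 in cortex and 10.36 to 10.56 in medulla. There 7 of 18 leukocyte-wide genes fell, with list means of 9.17 to 11.00 in cortex and 8.14 to 9.13 in medulla, so that neither list's groups overlapped. Their part in the members' direction was not tested.

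The 35 calls in host medulla and the 3 in host cortex are not shown to differ, gene by gene. The interaction, the regional difference in host cells minus that in C57BL/6 cells, called 0 members, where 0.502% of all tested genes were higher and 0.397% lower. At an unadjusted p under 0.05 it gave 6 higher and 1 lower, against 4.29% and 3.99% of all tested genes, with a median of 0.51 against 0.08 for all tested genes and 78 of 84 values above 0. For donor minus BALB/c cells the interaction also called 0 members (0.0558% of all tested genes higher, 0.397% lower), with 1 higher and 2 lower at an unadjusted p under 0.05 (3.74% and 4.91% of all tested genes) and a median of -0.03 against 0.07.

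Between the strains at rest, few members differed. In cortex, BALB/c cells had 1 member higher and 1 lower than C57BL/6 cells, where 7.96% of all tested genes were higher and 1.94% lower. Sdha fell from 12.08, 11.69, 11.62 and 11.22 to 11.07, 11.51, 10.54 and 9.63 (-0.96 ± 0.30, adjusted p = 0.046), with overlapping groups. In medulla 2 were higher and 0 lower, where 6.48% were higher and 2.63% lower. These were Ndufa10, an accessory subunit of complex I (0.92 ± 0.28, adjusted p = 0.044), and Ndufa4l2. Ndufa4l2, a hypoxia-inducible relative of Ndufa4, was higher in homeostatic BALB/c cells in both regions. The differences were 0.65 ± 0.18 (adjusted p = 0.023) in cortex and 0.61 ± 0.18 (adjusted p = 0.037) in medulla. The gene stayed dim, at 6.63 to 6.90 in C57BL/6 cortex and 7.15 to 7.67 in BALB/c cortex. Each of these calls was lost without any 1 of 3 to 6 arrays, and over all alternatives the adjusted p reached 0.20 for Sdha, 0.12 for Ndufa10 and 0.076 and 0.091 for Ndufa4l2 in cortex and medulla. The count in cortex ran from 0 to 4 and that in medulla from 0 to 6 with 1 array left out. The BALB/c cortex values of Ndufa4l2 lay under the median probeset of their arrays (7.73 to 7.87), so the size is uncertain. Donor cells, with the same strain label, averaged 6.80 in cortex and 6.99 in medulla. Homeostatic BALB/c cells averaged 7.41 and 7.57, and C57BL/6 cells 6.76 and 6.96. The part of dim signal and of the spread of the arrays in this difference was not tested.

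The tissue-restricted isoforms had lower median differences than the broadly expressed members in the 4 graft comparisons. Cox4i2, Cox6a2, Cox6b2, Cox7a1, Cox8b and Cox8c are complex IV subunits of muscle, testis, lung or hypoxic tissue that stand in for a common form. Ndufa4l2, a hypoxia-inducible relative of Ndufa4, was grouped with them. The median difference of this class was 0.17 in host medulla, 0.02 in host cortex, -0.28 in donor medulla and -0.47 in donor cortex. The broadly expressed members of complex IV had medians of 0.86, 0.35, 0.73 and 0.53. The difference between these medians was not tested. The isoforms were also dimmer, with a class mean of 8.07 in BALB/c cortex against 11.91 for the broadly expressed members of complex IV. The part of brightness, and of the unequal spread of the arrays, in this contrast was not tested.

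Cox6a2, the heart and muscle form of Cox6a, read 8.62, 8.33, 8.64 and 8.98 in C57BL/6 cortex and 10.80, 10.23 and 8.79 in host cortex (1.29 ± 0.31, adjusted p = 0.018). Donor cortex read 8.60, 8.04 and 8.63, which gave a donor minus host difference of -1.51 ± 0.34 (adjusted p = 0.039). Host cortex replicates 1 and 2 were high, and replicate 3 lay within the range of C57BL/6 cortex. The host call was lost without host cortex replicate 1 (0.86, adjusted p = 0.11), host cortex replicate 2 (1.15, adjusted p = 0.11) or C57BL/6 cortex replicate 2 (1.19, adjusted p = 0.059). The donor minus host call was lost without host cortex replicate 1 (-1.08, adjusted p = 0.22), host cortex replicate 2 (-1.37, adjusted p = 0.17), donor cortex replicate 1 (-1.60, adjusted p = 0.08) or donor cortex replicate 2 (-1.32, adjusted p = 0.22). When only donor and host cortex were fitted, the difference of -1.51 had an adjusted p of 1.0, and of 0.75 once the mouse was added as a fixed block. The common form, Cox6a1, had differences of 0.43 ± 0.79 in host cortex and 0.11 ± 0.85 between donor and host cortex.

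Markers of plasmacytoid dendritic cells, the main interferon producers, moved with Cox6a2 across the host cortex arrays. This list of 8 genes was added after the values of Cox6a2 had been seen. Siglech read 12.78, 11.01 and 8.19 in host cortex replicates 1, 2 and 3, and Ccr9 read 12.00, 9.77 and 7.12. The mean of the list was 10.94, 9.87 and 8.46 on those arrays, 8.42 to 8.67 in C57BL/6 cortex and 7.92 to 8.16 in donor cortex. Of the 8 genes, 3 rose from C57BL/6 to host cortex and 3 were lower in donor than in host cortex. Their part in the result was not tested.

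Cox7a1, the heart and muscle form of Cox7a, gave the largest difference of any member in host medulla, 2.99 ± 0.86 (adjusted p = 0.023). It read 7.43, 7.50, 7.45 and 7.87 in C57BL/6 medulla and 9.01, 12.55 and 10.09 in host medulla. The C57BL/6 medulla values lay near the median probeset of their arrays (7.65 to 7.67). Without host medulla replicate 2 the difference was 1.99 (adjusted p = 0.20). The gene varied within other medulla groups too, at 8.03, 11.80, 10.36 and 8.16 in BALB/c medulla and 7.79, 11.85 and 9.72 in donor medulla. Replicate 2 of donor and host medulla are the same graft, and it had the highest value in both. Its common form Cox7a2 had a difference of 1.61 ± 0.61 (adjusted p = 0.098) in host medulla.

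**Figure D4:**
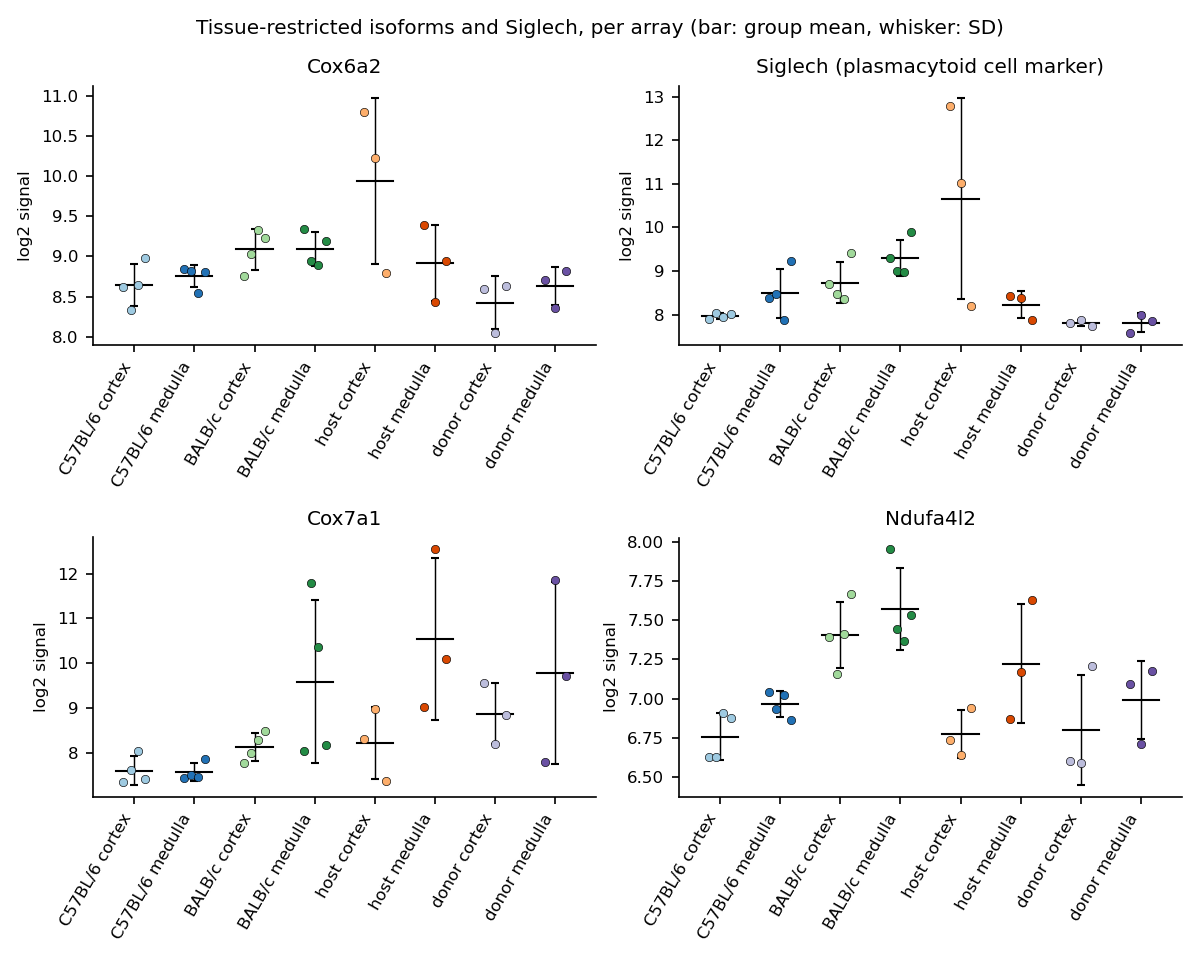
Log2 signal of Cox6a2, Siglech (a plasmacytoid dendritic cell marker), Cox7a1 and Ndufa4l2 on each array, with points for arrays, a bar for each group mean and whiskers for the SD. Cox6a2 and Siglech are both high on host cortex replicates 1 (10.80 and 12.78) and 2 (10.23 and 11.01) and lower on replicate 3 (8.79 and 8.19).

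Other mitochondrial genes were counted in lists outside the rule. For comparison with each list, 6.27% of all tested genes rose and 5.21% fell in host medulla, and 7.91% rose and 16.1% fell in donor cortex. In host cortex 2.01% rose, and in donor medulla 1.73%. Of 17 genes of pyruvate dehydrogenase and the citric acid cycle, which feed electrons to the chain, 4 rose in host medulla, with a median of 1.11 and all 17 differences above 0, and 8 rose in donor cortex (median 1.56). Idh2, a mitochondrial isocitrate dehydrogenase, rose by 2.42 ± 0.44 in host medulla and 1.75 ± 0.44 in donor cortex, and Idh3a by 1.97 ± 0.47 and 2.19 ± 0.47. In host cortex and donor medulla 1 of 17 rose, with medians of 0.62 and 1.12. Electron carriers and coenzyme Q enzymes had 3 of 16 higher and 0 lower in host medulla, led by Etfb (1.84 ± 0.43), which passes electrons from fatty acid oxidation. They had 4 higher and 1 lower in donor cortex.

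Assembly factors outside the symbol rule had 7 of 36 higher and 0 lower both in host medulla (median 0.58) and in donor cortex (median 0.60). Examples were Coa3, a complex IV assembly factor (1.73 ± 0.39), in host medulla and Lrpprc, which stabilises mitochondrial messenger RNA (1.98 ± 0.47), in donor cortex. Membrane carriers had 4 of 11 higher in each (0 lower in host medulla and 1 lower in donor cortex), among them Slc25a4, the ADP/ATP carrier (0.91 ± 0.26 and 0.88 ± 0.26). Mitochondrial ribosomal proteins had 5 of 76 higher in host medulla and 13 of 76 in donor cortex, with 0 lower and a median of 0.51 in both. The count of 5 in host medulla lay near the share of all tested genes that rose there (6.27%).

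Among 15 regulators of mitochondrial biogenesis, 2 rose in each, Ppargc1a and Esrrg, and the other regulators were not called higher. Ppargc1a, a coactivator that switches on respiratory genes, read 8.86, 9.67, 6.98 and 6.48 in C57BL/6 medulla and 12.25, 12.46 and 12.41 in host medulla (4.38 ± 0.94, adjusted p = 0.0026). It read 9.94, 6.83, 9.07 and 7.01 in BALB/c cortex and 10.75, 11.75 and 11.89 in donor cortex (3.25 ± 0.94, adjusted p = 0.017). Its partner Esrrg, an orphan nuclear receptor, rose by 2.72 ± 0.35 and 1.40 ± 0.35. In each case the graft arrays lay above the homeostatic arrays for Ppargc1a. Its values of 6.98 and 6.48 in C57BL/6 medulla lay under the median probeset of those arrays (7.65 to 7.67). So did its 6.83 and 7.01 in BALB/c cortex (7.73 to 7.87), so both sizes are uncertain. The part of the epithelial marker genes, which rose in the same comparisons, was not tested. Glycolysis genes had 6 of 14 higher and 0 lower in host medulla (median 1.09), among them Hk1 (2.41 ± 0.37), and 3 higher and 1 lower in donor cortex.

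Cytosolic ribosomal protein genes had 0 of 46 higher and 3 lower in host medulla (median -0.19), and 0 higher and 1 lower in donor cortex (median -0.05). Their list mean stayed between 11.67 and 12.04 on all 28 arrays. Of the subunits encoded by mitochondrial DNA, 2 had probesets with a usable symbol. ND3, of complex I, had a difference of 0.27 ± 0.14 (adjusted p = 0.29) and COX2, of complex IV, one of -0.05 ± 0.12 (adjusted p = 0.89) in host medulla. In donor cortex both rose, ND3 by 0.72 ± 0.14 (adjusted p = 0.0017) and COX2 by 0.32 ± 0.12, just inside the threshold.

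**Figure D5:**
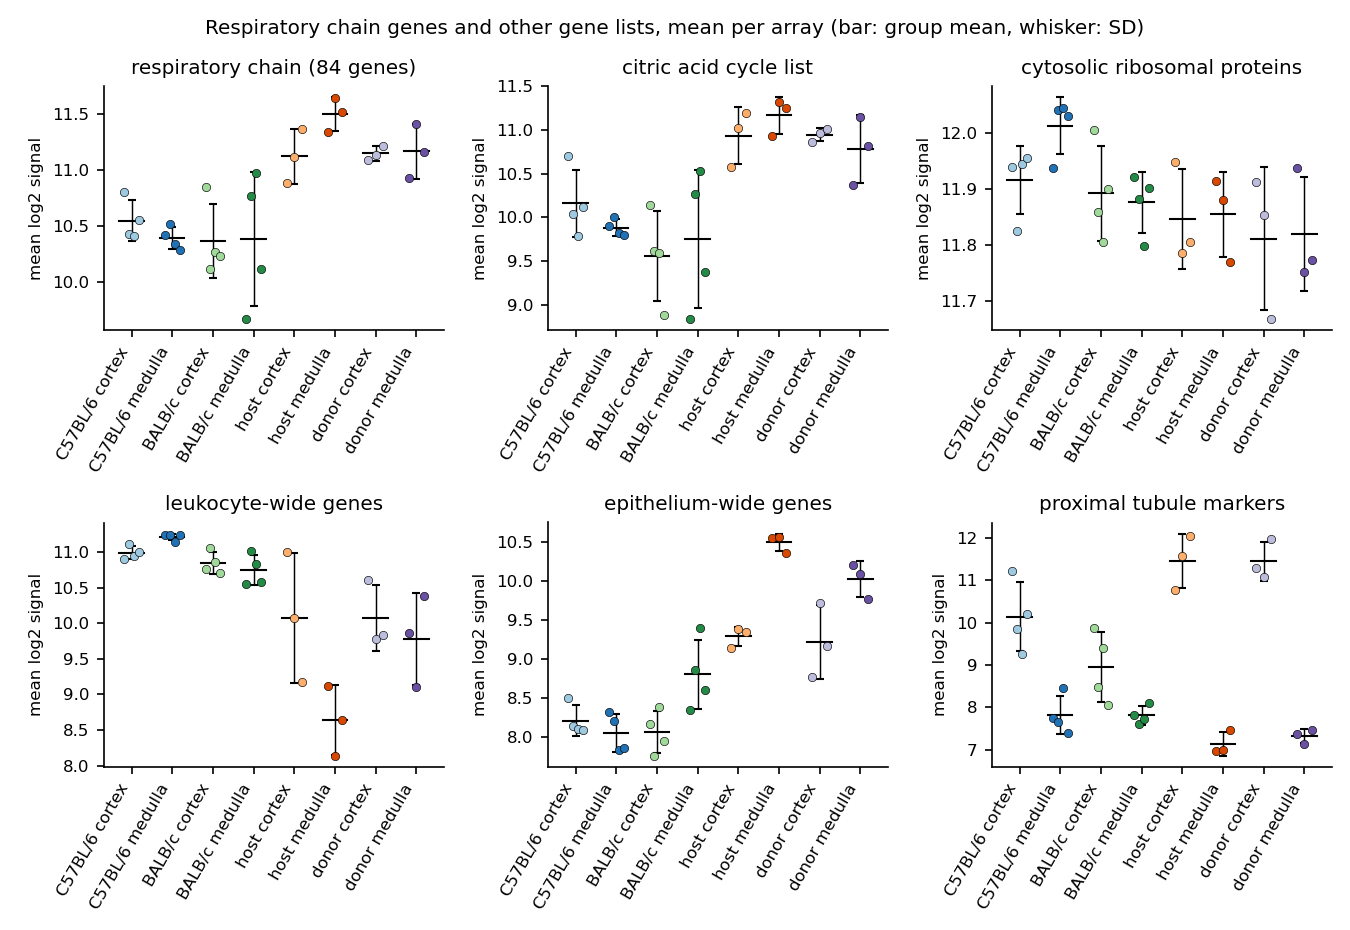
Mean log2 signal per array of the 84 tested members and of 5 gene lists (citric acid cycle, cytosolic ribosomal, leukocyte-wide, epithelium-wide and proximal tubule), with points for arrays, a bar for each group mean and whiskers for the SD. Leukocyte-wide means are 11.15 to 11.25 in C57BL/6 medulla and 8.14 to 9.13 in host medulla, where epithelium-wide means are 10.36 to 10.56, and ribosomal means lie between 11.67 and 12.04 throughout.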

How the data were processed

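Signal of 28 Affymetrix arrays was analysed. The deposited values are log2 signal made by the authors with RMA (background correction, quantile normalization and probe summary) with oligo, as the submitters' processing notes name them, without versions. These values were used as given. They still differed in spread between arrays, with an SD over all probesets from 1.46 (BALB/c medulla replicate 1) to 1.84 (donor cortex replicate 1). Of 22549 probesets, 20646 had 1 symbol, 551 several and 1352 none listed; 2 of those with several symbols hold a member symbol and were left out. All 85 members matched a RefSeq gene. Of these, 15 had several probesets, and 14 of the 15 agreed in sign in host medulla and donor cortex. Sizes could still differ: in donor cortex the kept Uqcr11 probeset gave 0.95 and its other probeset 1.91, while both gave 1.94 in host medulla. Near-identical copies of a gene could share probes.

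A gene was tested when it exceeded the 40th percentile of its array on at least 3 arrays. limma 3.58.1 in R 4.3.3 fitted a mean for each of the 8 groups (20 residual degrees of freedom, moderated statistics, 2-sided). There were 12 comparisons of groups and 2 interactions, with Benjamini-Hochberg adjustment over 14346 genes. The script was tested on simulated data. Comparisons that share a group are not independent. The members and all gene lists were chosen with earlier results of these data known.

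Named genes were the up to 8 highest and 8 lowest called differences of a comparison, the 3 brightest and 3 dimmest members of a complex, tissue-restricted isoforms with their common forms, the Sdh and c-ring genes, and up to 3 genes of a list. Outside this rule, Ndufs1, Ndufs5, Ndufs8, Ndufv2, Ndufa11, Ndufb3, Cox5a, Cox7a2l and Atp5mpl were named after their values had been seen, as was Ndufa6 among the closing observations.

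Mouse numbers pair arrays of the same animal. Deviations from the group mean correlated within a graft by 0.155 between regions in donor and 0.106 in host cells, and between donor and host by 0.220 in cortex and 0.171 in medulla, but by about 0 in healthy kidneys. Mouse as a block was an alternative, as were other filters, a second quantile normalization, array weights, groups fitted alone, all probesets averaged and each array left out.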

Additional observations from a re-analysis of the deposited data

Results flagged for a closer look

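In homeostatic groups, whose 4 arrays allow the check, 24 of 376 sets of values had 1 array far from the other 3 by Dixon's criterion. Chance alone marks about 1 in 20. Many of these were low values on BALB/c medulla replicate 1, the array that stood apart: the complex III mean (8.11), Ndufa9 (10.32), Ndufc2 (8.31), Uqcrb (6.73), Uqcrh (7.99), Cox5a (6.47) and Cox6b1 (12.68). In the same group Ndufa5 (10.02) and Atp5c1 (11.14) were low on replicate 4, Ndufb2 (9.64) was high on replicate 3, and Ndufaf5 (10.32) was high on replicate 2.

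In BALB/c cortex, replicate 1 was high for the complex IV mean (12.47) and Uqcrfs1 (10.74), and replicate 2 was low for Ndufa6 (10.37) and Atp5j (10.79). In C57BL/6 cortex, replicate 1 was high for the mean of complex I assembly factors (9.89), replicate 3 for Cox6b1 (13.36) and Cox7a2l (11.89), and replicate 4 for Cox7b2 (5.69). In C57BL/6 medulla, replicate 1 was high for Ndufs1 (11.24), replicate 3 was high for the complex II mean (10.42) and low for Cox6a2 (8.55), and replicate 4 was high for Cox7a1 (7.87) and Cox8b (8.37).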

How the results depend on the processing

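Across 1084 recalculations of 68 called gene results, 832 kept direction and call, 252 kept direction but lost the call, and 0 changed sign. The causes were not tested. Counts of members called moved as follows. Groups fitted alone gave 5 in donor cortex, 0 in donor medulla, 1 in host cortex, 0 for donor against host cortex, and 1 and 0 for strain in cortex and medulla. A second quantile normalization gave 6 in donor cortex, 1 in host cortex, 0 for donor against host cortex, and 0 and 6 for strain. Array weights gave 5 in host cortex, 1 and 2 for region in donor and host cells, and 5 and 8 for strain. The strict filter gave 0 for strain in both regions, and no filter gave 6 for strain in medulla. With mouse as a random replicate block, region in host cells gave 1 and strain in medulla 4; with mouse as a fixed block in the 2 groups alone, donor against host cortex gave 0. Beyond these and the Ndufc1 and Cox6a2 calls, given with their values, a block changed no other count by over 1.5 times. With 1 array left out, the counts ran from 21 to 32 in host medulla, 7 to 40 in donor cortex, 1 to 13 in donor medulla, 1 to 3 in host cortex, 0 to 4 and 0 to 6 for strain in cortex and medulla, and 0 to 1 for donor against host cortex, for region in BALB/c and in host cells and for the host interaction. Filter percentiles taken over all probesets (14325 genes) or the brightest ones (14363 genes), added after seeing the data, gave the same count in all 14 comparisons. Dim genes near background have compressed differences.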
